A study of Homo sapiens with 6 samples.

Results

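The expressed genes of 3 RNA sequencing libraries labelled HepG2 and control siRNA are described here, 3 of the 6 libraries of a study of FTO-regulated genes in hepatocellular carcinoma. HepG2 is an established human liver cancer cell line. The cells were grown at passage 16 to 19 in RPMI-1640 medium with 10% fetal bovine serum, and were transfected with a control siRNA, so each library carries the transfection itself. The libraries are numbered control 1, control 2 and control 3, were chosen by that label alone, and form a single group. No value below uses the libraries transfected with siRNA against FTO, the RNA demethylase the study set out to deplete. In the controls FTO stood at 41, 37.8 and 38.4 CPM (counts per 1000000 counts of a library) in controls 1, 2 and 3.

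Hepatocytes make most proteins of the blood plasma, assemble lipoproteins, store and release glucose, convert ammonia to urea, synthesise bile acids and oxidise drugs. A set of transcription factors, among them HNF4A, the FOXA family and CEBPA, maintains these genes. The fetal liver expresses another set, including AFP, IGF2 and the LIN28B and IGF2BP proteins, and other isoenzymes of sugar metabolism, and liver tumours and the lines made from them often carry that fetal set.

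Total counts were 15713279, 16488082 and 16739978 in controls 1, 2 and 3, so that 3 counts in a library, taken as the floor, correspond to 0.191, 0.182 and 0.179 CPM. Counting intervals and floors cover counting error only. Of 60483 gene identifiers, 13391 (22.1%) had a mean of at least 1 CPM, and of 19645 protein-coding genes 11736 (59.7%) did. The counts of each pair of libraries differed by more than sampling noise (chi-square over its degrees of freedom between 5.78 and 10.3), so none is a copy of another, and Pearson's r of log2 CPM across the 13391 genes was between 0.988 and 0.991, a description over genes and not over replicates. Nothing in the labels says whether the libraries came from separate cultures, so the spread between them may be technical. All values after ± are SDs over the 3 libraries. CPM counts reads and grows with the length of a gene, so an order of genes by CPM says which took the most reads. Levels of different genes are compared in TPM, the usual length-scaled unit, which divides each count by the length of the gene's exons. None of the 37 genes of the mitochondrial genome had a count, and neither did the broadly expressed genes XBP1, a transcription factor of secretory cells, and MAGED1, so a gene listed at 0 is reported only as listed at 0.

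The label was checked against 5 hepatocyte markers. AFP (ENSG00000081051.6), the fetal counterpart of albumin, had 12851, 12938 and 9497 CPM in controls 1, 2 and 3. ALB (ENSG00000163631.15), albumin, had 5339, 5282 and 3518 CPM. APOB (ENSG00000084674.12), the scaffold protein of very low density lipoprotein, had 8216, 7385 and 5018 CPM. SERPINA1 (ENSG00000197249.11), the elastase inhibitor alpha-1-antitrypsin, had 3464, 2999.6 and 2130.3 CPM, and APOA1 (ENSG00000118137.8), the main protein of high density lipoprotein, 160.3, 182 and 113 CPM. All 5 were above 100 CPM in every library, and control 3 was the lowest for each of them. Some other values did not match what this line is known for. HepG2 carries a stabilised form of beta-catenin, is known to secrete IGFBP1 and to express the imprinted RNA H19, and is known for little GSTP1, a glutathione transferase. Here the beta-catenin targets AXIN2 and SP5, named after their values were seen, had 4.26, 4.18 and 5.02 and 3.18, 2.79 and 2.45 CPM, LEF1 had 0, 2 and 1 counts, IGFBP1 1, 1 and 1 counts and H19 5, 3 and 1 counts in controls 1, 2 and 3, whereas GSTP1 had 1326, 1446 and 1474 CPM. Of other known targets of beta-catenin in the liver, glutamine synthetase GLUL had 421 ± 43.2 CPM and TBX3 39.5 ± 4.87 CPM. The identity of the line was not tested, and the libraries are named by their label throughout.

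The genes that took the most reads were AFP, the translation factor EEF1A1, the matrix and plasma protein FN1, the iron store FTL and APOB, in that order of counts. EEF1A1 had 8988 ± 407 CPM, FN1 8759.6 ± 269 CPM and FTL 7946 ± 380.2 CPM (n = 3). EEF1A1 and FN1 changed order between the libraries. AFP had 11762 ± 1962 CPM and was above all of them in every library. EEF1A1 and FTL share 29.3% and 18.3% of their 50-base words with other genes, and how such reads were counted is not given in the sources used here. Behind APOB (6873 ± 1659 CPM) came actin ACTB, ALB, the simple epithelial keratin KRT8, the pseudogene MTATP6P1, the elongation factor EEF2, the chaperone HSPA8 and SERPINA1. Then followed PEG10, the chaperone HSP90AA1, the nucleolar protein NCL, the glycolytic enzymes GAPDH, PKM and ENO1, the prolyl isomerase PPIA and the scaffold protein AHNAK (1981 ± 319 CPM). So 4 of the 20 genes with the most counts encode liver-secreted proteins of the marker set and 3 are enzymes of glycolysis. The 10 genes with the most counts held 6.56% ± 0.30 of all counts, and between 955 and 966 genes held 50% of them.

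Per length the order was another, and FTL led with 37604 ± 1960.2 TPM. MTATP6P1, a nuclear copy of a mitochondrial gene, came next with 22826 ± 2445 TPM. In MTATP6P1 46.7% of 50-base words occur in other genes, and the gene it copies was listed at 0. AFP had 15001 ± 2558 TPM and ALB 5802 ± 1294 TPM. The histone gene H2BC12 (7444 ± 653 TPM) shares 74.1% of its words with other genes and is therefore uncertain. ACTB, EEF1A1, the actin-binding peptide TMSB10, the mitochondrial pseudogene MTND1P23 and the ribosomal protein RPL41 completed the first 10, between 3377 TPM for RPL41 and 6360.4 TPM for ACTB.

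Most secreted plasma proteins were expressed, at 40 of 52 from 1 CPM (76.9%, against 59.7% of protein-coding genes). Per length, AFP and ALB were followed by FGB, the fibrinogen beta chain (2718 TPM), AMBP, the precursor of alpha-1-microglobulin (2559.9 TPM), and SERPINA1 (2429 TPM). FGB had 1602, 2276 and 1433 CPM and AMBP 1304, 1383 and 1083 CPM in controls 1, 2 and 3. Of the acute phase and transport proteins of adult plasma, SERPINA3, APCS, A1BG, ITIH3 and ITIH4 were under 3 counts in every library. APCS, A1BG and ITIH3 were listed at 0, and SERPINA3, alpha-1-antichymotrypsin, had 0, 0 and 1 counts. Other genes overlap 74.4% of the exonic bases of ITIH4, 50.9% of those of A1BG and 31.8% of those of SERPINA3. Haptoglobin, HP, the haemoglobin carrier, had 17.2, 17.1 and 5.97 CPM, although 15.1% of its words occur in other genes. The 3 libraries were not alike in this list. Control 3 was the lowest for 35 of the 40 expressed members (87.5%), against 39.3% of all genes from 1 CPM. A difference between libraries is called where the 95% exact Poisson intervals of the highest and the lowest library do not overlap, which sets the libraries against counting error alone. It was called for 36 of the 40, against 37.1% of genes from 1 CPM. Intervals narrow with the level: among the 19 members from 100 CPM 18 were called, against 69.8% of all genes from 100 CPM, so a fold minimum was added there. Of the 19, 11 were called and differed at least 1.5-fold, against 4.58% of all genes from 100 CPM. The 11 became 3 without control 3 and 5 without control 1, where the 110 genes of that level called in all became 38 and 27. In bulk RNA, fewer cells making a protein and less RNA per cell cannot be told apart.

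**Figure D1:**
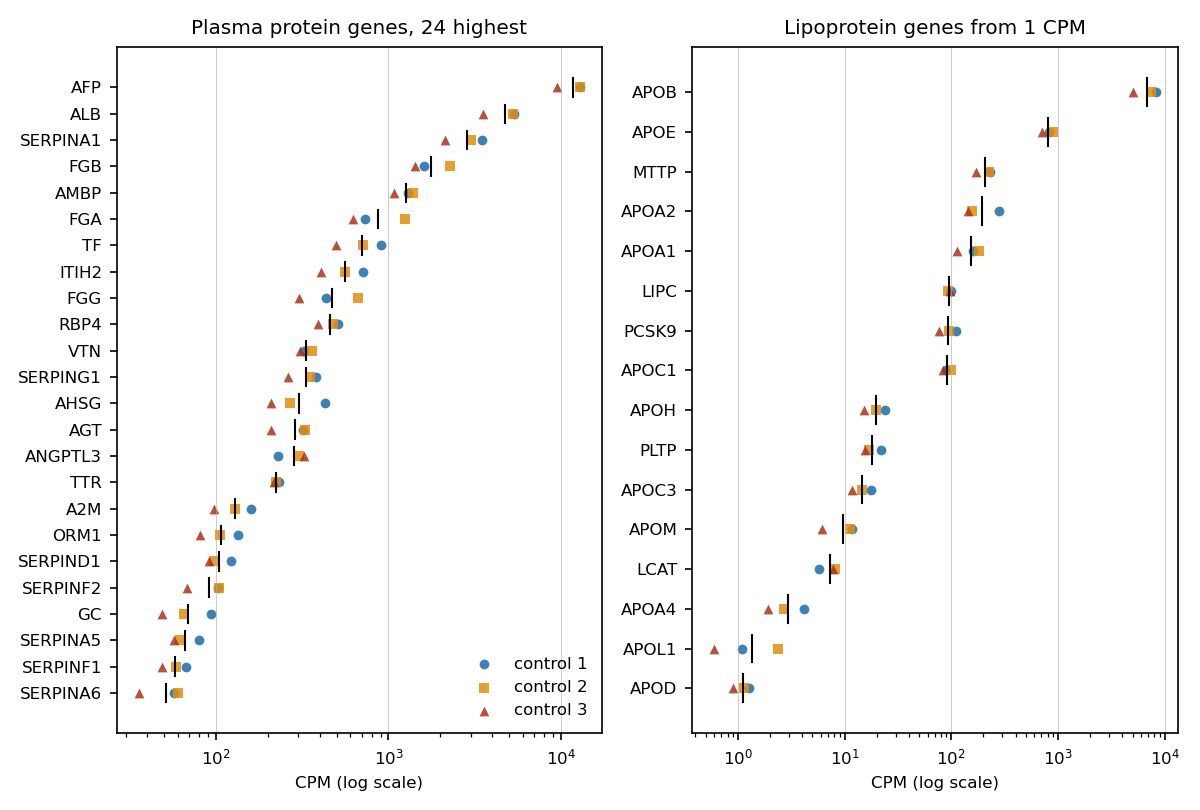
CPM on a log axis of the 24 plasma protein genes highest in CPM (left) and of 16 lipoprotein genes from 1 CPM (right), with 1 point for each control library and a bar at the mean. Control 3 (triangles) lies to the left for most genes, for example at 5018 CPM for APOB where controls 1 and 2 stand at 8216 and 7385.

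Lipoprotein genes, too, were mostly lowest in control 3. Of 23 genes of apolipoproteins and lipoprotein assembly 17 reached 1 CPM, and control 3 was the lowest for 14 of them, against 39.3% of all genes from 1 CPM. Which of the other two libraries was the highest varied. After APOB, APOE, a ligand of lipoprotein receptors, had 816, 898 and 708 CPM and MTTP, which loads lipid onto APOB, 231, 226 and 169 CPM. APOA2, of high density lipoprotein, had 282, 155 and 142 CPM, with control 1 above the others. APOC4 and LPA were listed at 0, though 83% of the exonic bases of APOC4 overlap another gene, and CETP had 1, 0 and 1 counts.

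Genes of coagulation and complement were kept in part. Of 17 coagulation factors 13 reached 1 CPM. PROS1, the cofactor protein S, had 259 ± 22.6 CPM, the tissue factor inhibitor TFPI 147 ± 25.1 CPM, factor V gene F5 115 ± 35.3 CPM and prothrombin, F2, 89.9 ± 18.2 CPM. F9, factor IX, had 2, 0 and 1 counts. Of 23 complement genes 14 reached 1 CPM. C3, the central component, had 1519, 1428 and 1171 CPM and C5, of the terminal complex, 301 ± 57.8 CPM. C7, of the same complex, had 1, 0 and 0 counts, and C1QA, made by macrophages, was listed at 0.

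The hepatocyte transcription factors were nearly all present. Of 30 listed, 28 reached 1 CPM (93.3%), and the other two, XBP1 among them, were listed at 0. HNF4A, the nuclear receptor that sustains hepatocyte genes, had 372, 377 and 357 CPM and its partner RXRA 106 ± 15.6 CPM. PROX1, needed for growth of the liver bud, had 221 ± 28.9 CPM and CEBPA, a regulator of adult liver genes, 125 ± 25.1 CPM. The pioneer factors FOXA1, FOXA2 and FOXA3 had 93.8 ± 11.2, 76.4 ± 1.7 and 65.7 ± 12.3 CPM. Factors of the early liver were present too, with GATA4 at 105 ± 5.12 CPM, HHEX at 82.4 ± 2.55 CPM and TBX3 at 39.5 ± 4.87 CPM. The receptors that sense bile acids and foreign compounds had few counts. NR1H4, the bile acid receptor, had 24.8, 20.2 and 10.04 CPM, NR1I2, the xenobiotic receptor PXR, 6.43, 6.73 and 4.36 CPM and NR1I3, its relative CAR, 2.16, 1.39 and 1.55 CPM. NR0B2, the repressor that acts downstream of NR1H4, had 0.891, 1.33 and 0.836 CPM. Control 3 was the lowest for 20 of the 28, against 39.3% of all genes from 1 CPM. Of the 6 members from 100 CPM 0 were called with a 1.5-fold difference, near the 4.58% of all genes at that level.

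Many cytochrome P450 genes, which include the main drug oxidases, had few counts. Of 56 cytochrome P450 genes 21 reached 1 CPM, or 37.5%, against 59.7% of protein-coding genes, and 21 were under 3 counts in every library. CYP1A1, the target of the aryl hydrocarbon receptor, had 117, 52.1 and 146 CPM, with its lowest value in control 2, and CYP26B1, which degrades retinoic acid, 85, 104 and 131 CPM. Per length, CYP1A1 had 127 ± 57.8 TPM and CYP26B1 88.4 ± 19 TPM, before CYP20A1 (57.1 TPM) and the sterol hydroxylase CYP27A1 (49.3 TPM). The vitamin D hydroxylase CYP2R1 had 12.9 TPM. CYP3A4, the main drug oxidase of the adult liver, had 1, 1 and 1 counts, CYP3A43 2, 1 and 0 counts, and CYP2A13 was listed at 0. CYP7A1, the rate-limiting enzyme of bile acid synthesis, was listed at 0 and CYP8B1, which sets the ratio of the bile acids, had 0, 2 and 0 counts.

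A larger share of other detoxification enzymes than of cytochrome P450 genes reached 1 CPM. The cytochrome P450 list was not limited to liver forms and holds CYP11B1 and CYP17A1 of steroid hormone synthesis, both listed at 0. The shares therefore do not say how far liver enzymes were kept. Of 33 other phase I enzymes 25 reached 1 CPM and of 47 conjugating enzymes 32, against 59.7% of protein-coding genes, to which the share of conjugating enzymes is the closer. ALDH1A1, an aldehyde dehydrogenase that makes retinoic acid, had 1481, 1749.7 and 1353 CPM, and the quinone reductase NQO1 had 1019.97, 943 and 873 CPM. The liver alcohol dehydrogenase gene ADH1A had 1, 1 and 0 counts. Among conjugating enzymes GSTP1, also low in adult hepatocytes, led per length with 3078 ± 167 TPM, before GSTO1 (347 TPM) and MGST1 (132 TPM). Others had few counts: UGT2B7 had 2.48, 2.79 and 1.25 CPM, NNMT 0.636, 1.52 and 1.67 CPM and GLYAT 1, 0 and 0 counts in controls 1, 2 and 3. The SD of log2 CPM was 0.08 for GSTP1, a small spread beside the list's median of 0.20.

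Of 42 hepatocyte membrane transporters and receptors 29 reached 1 CPM. Among those with the most counts were the growth factor receptors EGFR (546 CPM), FGFR4 (313 CPM) and MET (158 CPM), KLB, the coreceptor of FGFR4 (168 CPM), and ASGR2, a subunit of the asialoglycoprotein receptor (197, 154 and 143 CPM). AQP9, a glycerol channel, was listed at 0 and GCGR, the glucagon receptor, had 1, 1 and 1 counts. Of 26 genes of bile acid synthesis and transport 17 reached 1 CPM, and SLC10A2, the intestinal bile acid transporter, was listed at 0.

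Most genes of the urea cycle were expressed with few counts. Of its 9 genes 8 reached 1 CPM, and only SLC25A13, the mitochondrial aspartate carrier, passed 100 CPM (122, 125 and 114 CPM). ASL had 31.7, 28.4 and 24.5 CPM, ASS1 14.5, 14.2 and 9.8 CPM and CPS1, the entry enzyme, 9.55, 11.1 and 4.06 CPM, and CPS1 was lowest in control 3. OTC, which joins carbamoyl phosphate to ornithine, had 2, 0 and 0 counts. Of 57 genes of amino acid catabolism 44 reached 1 CPM. Glutamate dehydrogenase GLUD1, AHCY and glutamine synthetase GLUL had the most counts, 462 ± 66, 443 ± 20.5 and 421 ± 43.2 CPM, though GLUD1 shares 25.8% of its words with other genes. Of 20 genes that mark the pericentral zone of the liver lobule 10 reached 1 CPM and of 16 periportal genes 9, against 59.7% of protein-coding genes, to which the periportal share is close. GLUL was the highest pericentral gene (194 TPM), and the pericentral transporter SLC1A2 was listed at 0. Control 3 was the lowest for all 9 expressed periportal genes, against 39.3% of all genes from 1 CPM. It was also the lowest for every expressed pericentral gene except LGR5 and AXIN2, so this was not particular to periportal genes. Among the 9 are ALB, also in the plasma protein list, and ASS1, CPS1 and ARG1, also in the urea cycle list.

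Isoenzymes were compared in TPM within each library, over 41 sets. In 17 of these sets the adult liver is known for 1 form. That form led every library in 2 of the 17, PFKL of phosphofructokinase and FABP1 of the fatty acid-binding proteins, both by a small margin. The class I alcohol dehydrogenases were all near the floor, and in the other 14 sets another form had the higher mean. For glucose entry and glycolysis, HK2 held 92.3% ± 3.42 of hexokinase TPM. ALDOA held 97.1% ± 0.628 of aldolase, although 53.5% of the exonic bases of ALDOA overlap another gene. PKM held 99.99% of pyruvate kinase, with 1, 2 and 0 counts of the liver gene PKLR in controls 1, 2 and 3. The transporter SLC2A1 held 87.4% ± 3.71 of 5 facilitated glucose transporters, with 30.6, 27 and 32.5 TPM. SLC2A2, the transporter of hepatocytes and pancreatic beta cells, had 2.09, 4.22 and 1.3 TPM and held 7.56% ± 4.89. PFKL held 57.2% ± 3.41 and PFKM 41.6% ± 3.1 of phosphofructokinase.

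The liver forms PCK1 and G6PC1, of glucose release, and GYS2, of glycogen synthesis, were at or near the floor, but not every enzyme of these pathways was. PCK1 had 1, 0 and 0 counts where the mitochondrial form PCK2 had 36.4, 34.3 and 27 CPM. G6PC1, which frees glucose from its phosphate, had 0, 1 and 0 counts where the broadly expressed G6PC3 had 54.3, 49.98 and 53.9 CPM. The liver glycogen synthase GYS2 had 1, 3 and 0 counts (87.5% of its exonic bases overlap another gene), and GYS1 79.4, 79 and 71 CPM. Glycogen phosphorylase was shared, with 57.6% ± 4.11 of TPM in PYGB and 42.3% ± 4.11 in the liver form PYGL. PC, pyruvate carboxylase, the first step of gluconeogenesis from pyruvate, had 321, 279.6 and 303 CPM, and 21 of 29 genes of gluconeogenesis, glycogen and fructose reached 1 CPM.

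**Figure D2:**
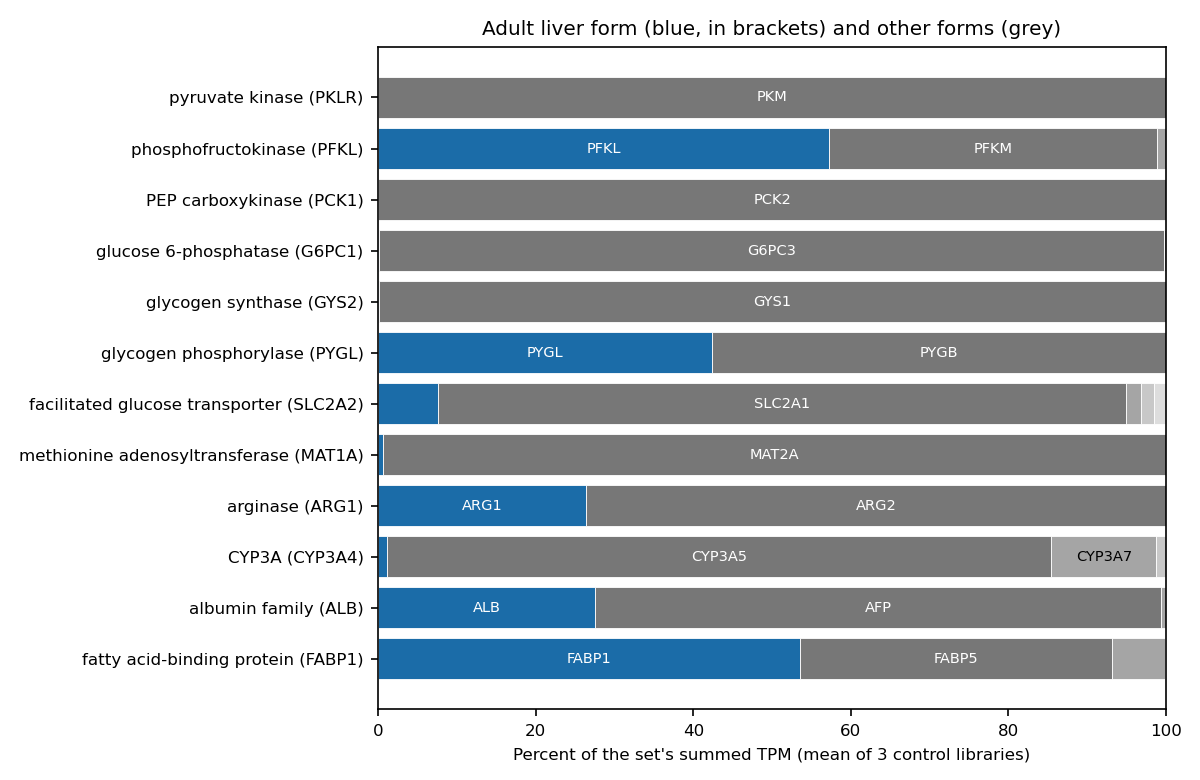
Percent of each set's summed TPM (mean of 3 control libraries) held by the adult liver form (blue, named in brackets) and by other forms (grey), for 12 of the 16 sets with known adult liver form whose leading gene reached 1 CPM. The blue bar is the longest only for PFKL and FABP1, and for pyruvate kinase, PEP carboxykinase, glucose 6-phosphatase and glycogen synthase it is too short to see.

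Among enzymes of amino acids the liver forms were again the lower ones. MAT2A, the methionine adenosyltransferase of growing cells, held 99.4% ± 0.415 of its set with 289, 219.7 and 293 TPM, and the liver form MAT1A had 1.79, 2.19 and 0.469 TPM. ARG2 held 73.6% ± 14.6 of arginase, and ARG1, the arginase of the urea cycle, had 6.19, 1.8 and 1.13 TPM in controls 1, 2 and 3. CYP3A5 held 84.4% ± 5.66 of the CYP3A set, the fetal form CYP3A7 13.3% ± 4.6 and CYP3A4 1.09%. AFP exceeded ALB by 1.38 ± 0.09 on the log2 scale of TPM, with 1.32, 1.34 and 1.48 in controls 1, 2 and 3, so this ratio moved little while both levels were lower in control 3. FABP1 held 53.6% ± 6.35 of the fatty acid-binding proteins and FABP5, of the skin and many tumours, 39.5% ± 4.62. Among sets without a liver form listed, LDHA held 99.7% of lactate dehydrogenase, with 20, 19 and 23 counts of LDHB. PFKFB3 held 91.6% ± 1.9 of 6-phosphofructo-2-kinase, CKB 99.7% of creatine kinase, GPT2 95% ± 1.86 of alanine aminotransferase and GSTP1 94.3% ± 0.652 of the glutathione transferases compared. IDH1 held 71.3% ± 1.64 of the NADP-dependent isocitrate dehydrogenases and ACACA 94.2% ± 0.849 of acetyl-CoA carboxylase. The order depended on the length used for PFKL and PFKM, PYGL and PYGB, FABP1 and FABP5 and IGF2BP2 and IGF2BP1, which turned with the length of the longest transcript, and for BCAT1 and BCAT2, which turned without any length.

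The promoters of ALB, AFP and 2 such pairs are shown because the lower liver form and the higher form of the 2 pairs differed in their content of CG, the dinucleotide that can be methylated, whereas ALB and AFP, neighbours in 1 gene family, were both high with few CG. The 150 bases before each start are printed 5′ to 3′ from RefSeq on GRCh38.p14, with CG in capitals. ALB lies at chr4:73404137-73404286 (+ strand) and AFP at chr4:73436071-73436220 (+ strand). MAT1A lies at chr10:80289659-80289808 (- strand), MAT2A at chr2:85539018-85539167 (+ strand), SLC2A2 at chr3:171026721-171026870 (- strand) and SLC2A1 at chr1:42958869-42959018 (- strand).
ALB: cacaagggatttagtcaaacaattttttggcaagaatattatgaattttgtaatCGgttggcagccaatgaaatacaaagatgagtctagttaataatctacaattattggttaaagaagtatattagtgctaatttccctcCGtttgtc
AFP: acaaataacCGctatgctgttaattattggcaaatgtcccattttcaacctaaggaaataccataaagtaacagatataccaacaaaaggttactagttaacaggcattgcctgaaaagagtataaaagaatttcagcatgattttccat
MAT1A: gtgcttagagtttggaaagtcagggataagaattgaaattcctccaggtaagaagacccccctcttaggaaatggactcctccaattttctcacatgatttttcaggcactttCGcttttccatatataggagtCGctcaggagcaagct
MAT2A: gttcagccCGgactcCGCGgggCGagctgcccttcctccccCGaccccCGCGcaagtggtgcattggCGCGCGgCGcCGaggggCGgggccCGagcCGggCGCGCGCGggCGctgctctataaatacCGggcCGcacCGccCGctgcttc
SLC2A2: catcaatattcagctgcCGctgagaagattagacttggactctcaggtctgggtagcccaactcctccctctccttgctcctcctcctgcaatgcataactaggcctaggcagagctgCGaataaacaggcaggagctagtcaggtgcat
SLC2A1: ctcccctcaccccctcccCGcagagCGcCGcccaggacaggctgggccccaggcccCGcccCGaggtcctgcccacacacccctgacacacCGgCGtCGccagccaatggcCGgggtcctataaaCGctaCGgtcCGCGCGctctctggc
Over the 250 bases before the start, ALB held 3 CG and AFP 1. MAT1A held 2 CG and MAT2A 34, SLC2A2 2 and SLC2A1 24. Of the 14 liver forms that another form exceeded, 9 had a promoter in the table, with a median of 3 CG (the start with the most, where a gene has several), and of the 14 forms that exceeded them 13 had, with a median of 24. PYGL, with 27 CG, was the highest of the liver forms, and CYP3A5, with 2, was a form that exceeded its liver partner at low CG. Over protein-coding genes with a promoter in the table the median was 23 for those from 1 CPM and 8 for those under 1 CPM. It was 3.5 for the 14 plasma protein genes from 100 CPM that had one, with a range from 0 to 34. Many of these highly expressed genes thus had few, but TF held 34 and RBP4 31. Methylation was not measured in these libraries.

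Imprinted genes, which are expressed mainly from 1 parental copy in at least some tissues, ranged from genes with over 1000 CPM to genes listed at 0. Of 71 found, 40 reached 1 CPM and 20 were listed at 0. PEG10, a paternally expressed gene derived from a retrotransposon, had 2722, 2787 and 2111 CPM in controls 1, 2 and 3, and its neighbour SGCE had 66, 59 and 52.6 CPM. GNAS, the stimulatory G protein subunit, had 1635, 1524 and 1615 CPM. IGF2, the fetal growth factor, had 1356, 1221 and 766 CPM, although 75% of its exonic bases overlap another gene, and IGF2R, the receptor that clears it, 499.6, 475 and 504 CPM. H19, the RNA encoded beside IGF2, was at the floor, as given above. CDKN1C and PHLDA2, growth inhibitors of the same region, had 1.59, 1.64 and 1.25 and 26.3, 28 and 49.3 CPM, and the antisense RNA KCNQ1OT1 had 32.1, 24.9 and 24.4 CPM. On the imprinted locus of chromosome 14, DLK1 had 1.4, 1.03 and 0.777 CPM, and MEG3, MEG8, MEG9 and RTL1 were listed at 0. The genes of the Prader-Willi region MAGEL2, NDN, SNRPN and SNURF were listed at 0 as well, though SNURF overlaps another gene at 69.3% of its exonic bases and MKRN3 beside them had 6.11, 4.85 and 6.45 CPM. UBE3A, maternally expressed in neurons, had 86.6, 91.9 and 83.1 CPM. PEG3 and ZIM2 were listed at 0 and MEST had 44.5, 37.5 and 62.7 CPM, highest in control 3. The transcription factor PLAGL1 had 72.3 ± 11.4 CPM and the insulin receptor adaptor GRB10 71 ± 1.38 CPM. Of the 40 genes, 18 were lowest in control 3, near the 39.3% of all genes from 1 CPM. The file gives no allele, so which copy was expressed was not measured.

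Of 63 oncofetal and progenitor genes 46 reached 1 CPM (73.0%, against 59.7% of protein-coding genes) and 29 reached 100 CPM. After AFP, PEG10 and IGF2, the surface protein CD24 had 1295, 1315 and 1123 CPM, the neuropeptide precursor NTS 888, 767 and 987 CPM and the chromatin protein HMGA1 663, 518 and 649 CPM. GPC3, a proteoglycan used as a marker of liver cancer, had 541, 560.3 and 372 CPM and was the lowest in control 3. LIN28B, which blocks let-7 maturation, had 389.8, 399 and 365 CPM, and LIN28A had 6, 2 and 14 counts. Known let-7 targets were present, with HMGA2 at 335, 271 and 206 CPM, TRIM71 at 171, 169 and 125 CPM, ARID3A at 473, 487 and 430.4 CPM and the RNA-binding proteins IGF2BP1, IGF2BP2 and IGF2BP3 at 415, 406 and 363, 191, 167 and 171 and 125, 132 and 126 CPM. Per length, IGF2BP1 held 45.3% ± 1.39, IGF2BP2 39% ± 1.71 and IGF2BP3 15.7% ± 0.969 of that family. The transcription factor MYC had 139.6, 155 and 170.01 CPM, MYCN 35.8, 29.4 and 26.6 CPM and the telomerase subunit TERT 10.1, 7.82 and 10.1 CPM.

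Markers of liver progenitors and bile ducts were mixed. KRT19, a keratin of bile ducts, had 167, 200.4 and 272 CPM and was the highest in control 3, while the bile duct keratin KRT7 had 0, 0 and 2 counts. SOX9 had 105, 74 and 76.2 CPM, PROM1 103, 148 and 148 CPM and EPCAM 23.4, 23.6 and 22.1 CPM. SALL4, a factor of fetal liver and germ cells, had 8.78, 6.85 and 6.93 CPM. Of the pluripotency factors, NANOG, SOX2 and TDGF1 were listed at 0 and POU5F1 had 3, 3 and 3 counts, a gene that shares 31.3% of its words with others.

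**Figure D3:**
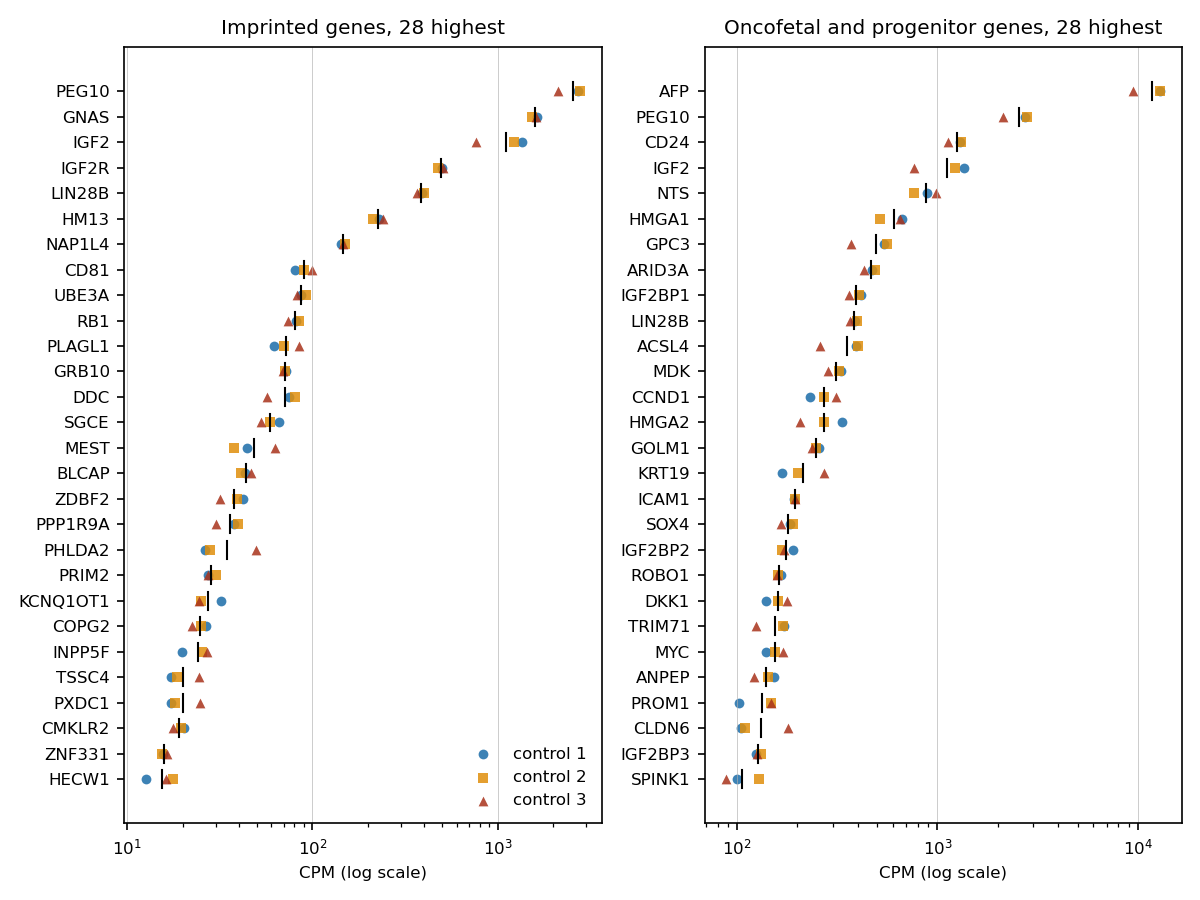
CPM on a log axis of the 28 imprinted genes (left) and the 28 oncofetal and progenitor genes (right) highest in CPM, with 1 point for each control library and a bar at the mean. AFP, PEG10 and IGF2 lie lowest in control 3 (triangles), whereas LIN28B and IGF2R lie close together in the 3 libraries.

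Of 45 cancer testis genes, most of them normally silent outside germ cells, 11 reached 1 CPM and 24 were listed at 0. Among the 24 were MAGED1, given above as broadly expressed, and copies such as SSX2, SSX4 and XAGE1A, whose words all occur in other genes, so these zeros are uncertain. Some of the 11, such as LIN28B and the mitotic genes CEP55 and TTK, are also expressed in other dividing cells. MAGED2, a broadly expressed member of the MAGE family, had 115, 128 and 115 CPM and BRDT, a bromodomain protein of the testis, 89.9, 81.3 and 71.8 CPM. MAGEA1, MAGEA2, MAGEA3 and MAGEA4 were listed at 0, of which MAGEA2 shares 93.6% and MAGEA3 56.2% of their words with other genes.

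Markers of immune, endothelial and erythroid cells were few. Those of neural cells, of fibroblasts and stellate cells and of cervical and kidney lines were present in part. For comparison, 59.7% of all protein-coding genes reached 1 CPM. Bile duct markers, some of them with many counts, are given above. Of 18 immune cell markers 2 reached 1 CPM, the lysozyme LYZ (74.8, 96.9 and 46.2 CPM) and CD74 (3.05, 2.73 and 2.93 CPM), and the summed level of the list lay between 52.3 and 102 CPM over the libraries. PTPRC, the leukocyte surface marker, had 0, 1 and 1 counts and MS4A1 was listed at 0. Of 12 endothelial markers 2 did, EGFL7 (43.8, 37.1 and 32.9 CPM) and PECAM1 (24.8, 25.3 and 20.1 CPM), with VWF, KDR and TEK listed at 0 and a summed level between 54.0 and 70.1 CPM. Of 16 fibroblast and stellate cell markers 8 did, led by FBLN1 (137, 135 and 127 CPM), TAGLN (34.5, 55.1 and 90.3 CPM) and LUM (29.8, 32.5 and 55.4 CPM), with DCN, COL6A3, ACTA2 and THY1 listed at 0 and a sum between 259 and 332 CPM. Of 14 erythroid and neural markers 3 did, all of them neural: MAP2 (53.1, 49.1 and 74.3 CPM), SYT1 (13.9, 18.3 and 17.6 CPM) and SNAP25 (11, 13.5 and 9.02 CPM). No erythroid marker had a mean of 1 CPM. Of 10 markers of cervical and kidney lines 5 reached 1 CPM, the highest in CPM of them DSG3 with 12, 12.4 and 15.2 CPM.

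Targets of TGF-beta, YAP and actin signalling and growth factor genes were among the genes that differed most between the 3 libraries. Over the 13391 genes from 1 CPM the median SD of log2 CPM was 0.13, the median coefficient of variation 8.73% and the common biological coefficient of variation (edgeR) 0.108. By counting error alone 4969 genes (37.1%) were called, and 1120 (8.36%) were called and differed at least 1.5-fold between the highest and the lowest library. More than 2-fold differences were found for 181 genes between controls 1 and 2, 267 between controls 2 and 3 and 348 between controls 1 and 3. With 1 library left out fewer pairs were compared, and the 4969 became 2479 without control 3, 3089 without control 2 and 3095 without control 1. With 3 libraries of 1 group no test against replicate error was possible: an exact two-sided sign-flip test over 3 libraries cannot go below p = 0.25.

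Ranked by that SD among genes from 10 CPM, 10 of the first 12 with a symbol were lowest in control 1, AKAP12 in control 2 and HP in control 3. NPPB, the precursor of a natriuretic peptide, had 2.1, 9.89 and 23.3 CPM in controls 1, 2 and 3, an SD of 1.75. CCN1, a secreted YAP target, had 59.7, 190.3 and 288 CPM, and ANKRD1, a nuclear YAP target, 83.1, 285 and 331 CPM. Control 1 was the low library for each of these genes. The vasoconstrictor EDN1 had 5.79, 25 and 20.6 CPM and the kinase NUAK2 6.24, 20.7 and 25.1 CPM, also low in control 1. OLR1, a scavenger receptor, had 6.49, 12.9 and 29.5 CPM. The EGF receptor ligands AREG and EREG had 15.5, 21.3 and 58.2 and 38.8, 70.5 and 141 CPM, the AP-1 subunit FOSL1 8.78, 12.4 and 30.2 CPM and the anchoring protein AKAP12 45.9, 44.7 and 135 CPM. These last 4 were the highest in control 3.

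**Figure D4:**
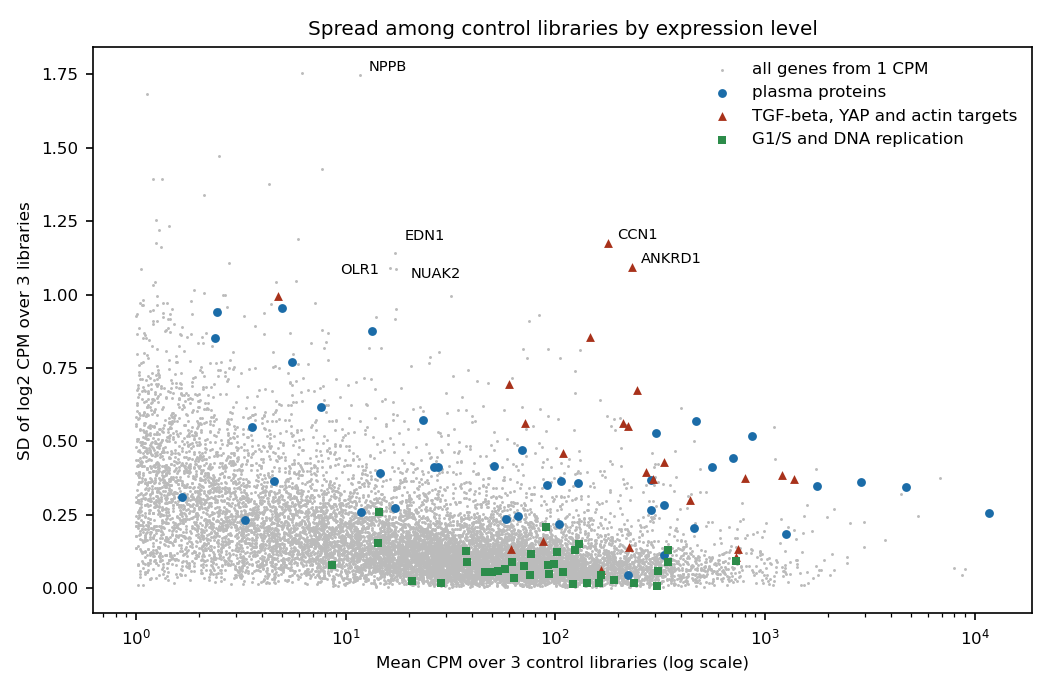
SD of log2 CPM over the 3 control libraries against mean CPM (log axis), 1 grey point for each of the 13391 genes from 1 CPM, with plasma proteins, TGF-beta, YAP and actin targets and DNA replication genes marked and the 6 genes of largest SD from 10 CPM named. The replication genes lie near 0.06, whereas CCN1 and ANKRD1 lie above 1.

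The list of TGF-beta, YAP and actin targets holds CCN1 and ANKRD1 and was chosen with earlier results known, so its counts are a description and no independent support. Of 24 genes 23 reached 1 CPM, and control 1 was the lowest for 20 of them (87.0%), against 28.7% of all genes from 1 CPM. None was the highest in control 1, where 37.1% of all genes were. Among the 18 members from 100 CPM, 13 were called and differed at least 1.5-fold, against 4.58%, and 3 did without control 1 and 7 without control 3. The actin cross-linker FLNA had 1019, 1415 and 1692 CPM, the myosin MYH9 906, 1167 and 1547 CPM and the tropomyosin TPM4 589, 848 and 977 CPM, each lowest in control 1 and highest in control 3. TGFBI, a matrix protein, had 674, 809.7 and 754 CPM and was highest in control 2. Immediate early genes were lowest in control 1 for 18 of 26, with CCN2 at 135, 309 and 295 CPM, KLF6 at 56.8, 113 and 101 CPM and JUND, whose libraries were not called as different, at 112, 114 and 122 CPM. The NF-kB and cytokine list was lowest in control 1 for 17 of 23, with SOD2, the mitochondrial superoxide dismutase, at 408, 537 and 349.6 CPM and TNFAIP2 at 172, 214 and 176 CPM, whereas the chemokine CCL20 was lowest in control 3 at 122, 154 and 113 CPM. Keratins and junction genes were lowest in control 1 for 13 of 20, with KRT8 at 3418, 4856 and 5149.9 CPM and KRT18, its partner, at 1246, 1899.9 and 2116 CPM. The plasma proteins thus differed from these lists in which library stood apart: their median deviation from the mean of the 3 libraries, in log2 CPM, was 0.20, 0.14 and -0.40 in controls 1, 2 and 3, and that of the TGF-beta, YAP and actin targets -0.42, 0.11 and 0.35. Over all genes from 1 CPM it was 0.02, 0.0022 and -0.01.

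**Figure D5:**
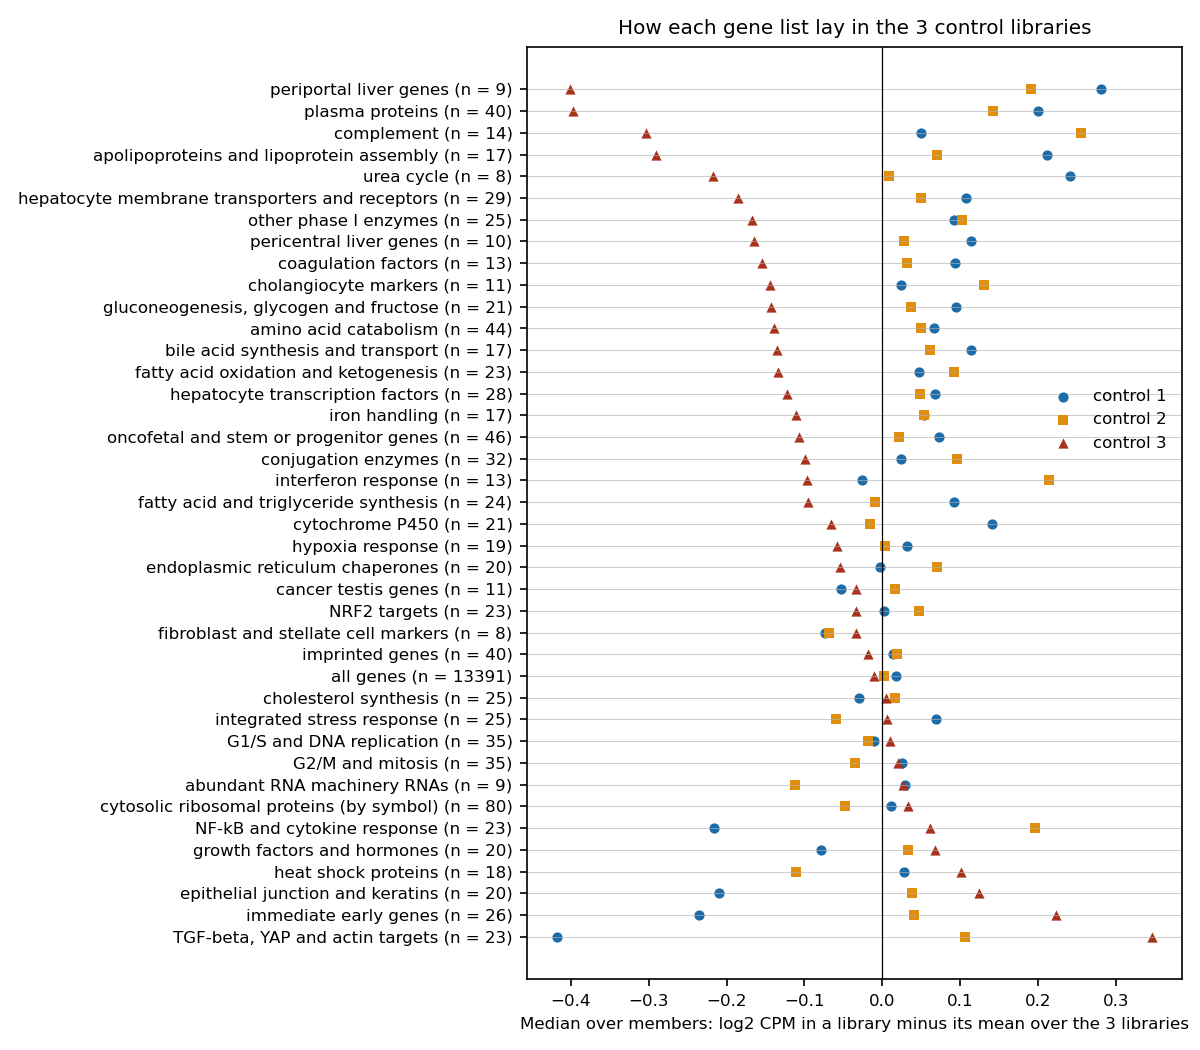
Median over the members from 1 CPM of each list of log2 CPM in a library minus the mean of the 3 libraries, with n the number of members. Lists of liver functions lie at the top, low in control 3, and the TGF-beta, YAP and actin targets at the bottom, low in control 1, whereas lists of replication, mitosis and ribosomal proteins stay near 0.

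Proliferation and translation genes differed little between the libraries. All 35 genes of DNA replication and all 35 of mitosis reached 1 CPM, with a median SD of 0.06 and 0.07 on the log2 scale, and no gene of either list was called with a 1.5-fold difference, against 8.36% of all genes from 1 CPM. MCM7, a subunit of the replicative helicase, had 757, 678 and 758 CPM and MKI67, the proliferation marker, 947, 791 and 830.3 CPM. The 80 cytosolic ribosomal protein genes from 1 CPM had a median SD of 0.06, and 56 of them were lowest in control 2, against 32.0% of all genes. Total counts differed by little between the libraries, and RNA quality is not given in the sources used here; their part in these differences was not tested.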

How the data were processed

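Each library came as a deposited table of raw counts by Ensembl identifier, made from Trizol-extracted total RNA and Illumina libraries per the labels' protocols. Per the submitters' processing notes the tools were TopHat2 2.0.11, TopHat and HTSeq and the builds GRCh37 and hg19, with no role stated. How shared reads were counted and whether strand was used is not given in the sources used here, so gene copies, overlapping genes and antisense genes are uncertain. The 3 control tables hold 60483 identifiers without summary lines, and 56753 matched GENCODE 29, used for symbols, types, exon lengths and overlap, while 37168 matched by version too. Unmatched identifiers held at most 0.042% of counts.

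CPM was computed on library totals without composition factors, TPM on the union of a gene's exons, and log2 CPM with 0.5 counts added. A gene was called where 95% exact Poisson (Garwood) intervals of its highest and lowest library do not overlap, a description with no p-value; the call and the coefficient of variation were tested on simulated data. Shared sequence is the share of 50-base words of the longest transcript found in a gene that does not overlap it, and overlap is the share of exonic bases within another gene's exons on either strand. Promoters came from RefSeq on GRCh38.p14. Of 1126 list symbols 9 did not match. Alternatives were TMM and RLE factors, other thresholds and lengths, and each library left out. Tools were edgeR 4.0.16 and DESeq2 1.42.0 (its size factors only) in R 4.3.3, and Python 3.11.15.

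The members and the 44 gene lists were chosen with earlier results of these data known. Genes were named by rule: FTO, the 5 markers, the 20 genes highest in CPM and the 10 highest in TPM, up to 5 of highest CPM and up to 5 under 3 counts per list, all isoenzymes, imprinted, oncofetal and transcription factor genes, and the 12 with a symbol and from 10 CPM of largest SD. Exceptions are marked. Not every gene the rule allows is described, and some that it names are not reported here. The count of members lowest in 1 library was added after the data were seen.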

Additional observations from a re-analysis of the deposited data

How the results depend on the processing

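Genes counted as expressed were 13391 from 1 CPM, 16484 with at least 3 counts in every library and 11736 among protein-coding genes only. The 10 genes with the most counts held between 6.46% and 6.77% of counts, the common biological coefficient of variation lay between 0.092 and 0.125, and 37 to 42 imprinted genes were counted. The 4969 genes called between control libraries by counting error became 1120 with a minimum of 1.5-fold, and 2479 to 3095 with 1 library left out, where 2 libraries in place of 3 enter each comparison. TMM and RLE factors left 4967 and 4982. The isoenzyme sets led in every library by the form listed first numbered 17 to 20. Turned ratios, on the log2 TPM scale, were, with the length of the longest transcript, PFKL over PFKM (0.46 to -0.000587), PYGL over PYGB (-0.45 to 0.093), IGF2BP2 over IGF2BP1 (-0.22 to 0.0047) and FABP1 over FABP5 (0.44 to -0.39), and without length BCAT1 over BCAT2 (-0.15 to 1.22); the lengths are all that these alternatives changed. The share of plasma proteins lowest in control 3 was 96.6% on the 29 members with under 5% shared and overlapping sequence, and 87.5% with either set of factors. No paired analysis was possible because only 1 group is described and its values come from no test. Depth limits the genes at the floor: 0 to 3 counts allow no order among them. With 3 libraries that may share a culture, the spread says nothing of other cultures, and exon lengths from an annotation other than the one counted on can shift TPM.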

Other observations

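Stress and secretory genes were expressed nearly in full. All 18 heat shock protein genes reached 1 CPM, with HSPA8 at 2960.2 ± 461 CPM, HSP90AA1 at 2469 ± 183 CPM and the mitochondrial chaperonin HSPD1 at 1293 ± 19.1 CPM, and 16 of the 18 were lowest in control 2, against 32.0% of all genes from 1 CPM. Of the 18, 4 were called with a 1.5-fold difference, against 8.36% of all genes from 1 CPM. Among the 4 was DNAJB1, a cochaperone, with 198, 137 and 211 CPM in controls 1, 2 and 3. HSPA1A and HSPA1B were also among them, but share 72.6% and 71.4% of their words with other genes, so their counts are uncertain. Of 22 endoplasmic reticulum chaperone genes 20 reached 1 CPM, with the calcium-binding chaperone CALR at 1795 ± 54.8 CPM, HSP90B1 at 1745 ± 93 CPM and HSPA5 at 1253 ± 61.2 CPM. None of the 20 was called with a 1.5-fold difference between libraries, which for so few genes is near the 8.36% of all genes from 1 CPM. Their median SD of log2 CPM was 0.07. All 23 targets of the antioxidant factor NRF2 reached 1 CPM, led in CPM and TPM by the ferritin genes FTL and FTH1, with FTH1 at 1419.6 ± 94.8 CPM. FTH1 overlaps another gene at 62.4% of its exonic bases.

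Lipid synthesis was expressed almost whole. Of 26 genes of cholesterol synthesis and uptake 25 reached 1 CPM and 15 passed 100 CPM. HMGCS1, an early enzyme of the pathway, had 729 ± 71.6 CPM, and the list's median SD of log2 CPM was 0.08. Of 29 genes of fatty acid and triglyceride synthesis 24 did, with the desaturase SCD at 1957, 1491 and 1337 CPM and fatty acid synthase FASN at 1104, 881 and 918 CPM in controls 1, 2 and 3. SCD5 and THRSP had 0, 1 and 0 and 0, 0 and 1 counts. Of 29 genes of fatty acid oxidation and ketone body synthesis 23 reached 1 CPM, with ACADVL at 283 CPM and HADHA at 234 CPM, and the entry enzyme forms CPT1B and CPT1C had 2, 1 and 0 and 1, 0 and 1 counts.

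Of 24 interferon response genes 13 reached 1 CPM (54.2%, against 59.7% of protein-coding genes). MX2, an antiviral GTPase, had 127, 113 and 123 CPM, while IFI44, IFITM1 and OAS2 were listed at 0. Of 31 growth factors and hormones 20 reached 1 CPM: after IGF2 came midkine MDK at 331, 322 and 285 CPM and the Wnt inhibitor DKK1 at 139.6, 161 and 178 CPM, whereas FGF21 and IGFBP5 were listed at 0. Of 13 metallothionein and zinc genes 7 reached 1 CPM, the zinc exporter SLC30A1 with 51.3 ± 2.45 CPM and MT2A, the main metallothionein of the liver, with 24.8, 56.4 and 27 CPM. The long noncoding RNAs NORAD, TUG1 and SNHG1 had 257, 158 and 132 CPM, and the short RNAs RN7SL1, RPPH1 and RNU4-2 were listed at 0.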
